A study of Mus musculus with 4 samples.

Results

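The ribosomal protein genes encode the protein shell of the cytoplasmic ribosome. Of 32287 gene features in the matrices, 80 were taken by their names (Rpl or Rps with a number and at most 1 of the letters a, l or x, and Rpsa, Rplp0, Rplp1 and Rplp2). These were 49 genes of the large subunit and 31 of the small subunit, and 77 of the 80 reached 50 CPM (UMIs, or counted molecules, per 1000000 gene UMIs of a group) in astrocyte-like cells of at least 1 condition. The other 3 were the paralogs Rpl3l, Rpl10l and Rpl39l. The names left out 5 rows with the pseudogene suffix, which held 0.0553% as many UMIs as the members.

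The cells came from Cx30-tdTomato mice, in which tamoxifen had switched on the tdTomato reporter through a recombinase driven by Cx30, a gap junction gene of astrocytes. All mice were aged 8 to 12 weeks at entry and had a pool of enhancer AAVs injected into the blood. The injured group had a spinal cord contusion 14 days after the virus and was sampled 3 days later from 5 mm around the lesion, and the uninjured group was sampled at the same level. Several animals were pooled per condition, and tdTomato-positive whole cells were sorted into 1 Chromium 3′ library per condition. The sort also let through cells of other types, listed below. With 1 library per condition no test was possible, and every interval below is an exact 95% interval that covers counting error only.

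Ribosomes are built from equal numbers of most of these proteins, in a small subunit that reads the messenger RNA and a large subunit that forms the peptide bonds. Their messenger RNAs are short, abundant and stable, and most start with a run of pyrimidines (the TOP motif) through which the growth kinase mTOR sets their translation. In the central nervous system astrocytes at rest are low-growth cells, and after injury they enlarge and express Gfap, an intermediate filament protein.

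The filters kept 879 injured and 4159 uninjured cells, with medians of 6816 and 3343 gene UMIs. Clustering without the members gave 13 clusters, of which 11 took 1 of 7 class names from their markers. The astrocyte-like class had 380 injured and 2871 uninjured cells, and all 10 of its markers had UMIs in both. The injured library also held 143 ependymal-like, 129 microglia-like, 70 endothelial-like, 46 OPC-like (oligodendrocyte precursor), 43 fibroblast-like and 13 mural-like cells, and the uninjured library 31, 32, 26, 14, 95 and 3 of these. The libraries shared 7 cell barcodes. Although the study states that both sexes were used in equal numbers, the uninjured astrocyte-like cells included 2 cells scored female by Xist against 1952 scored male by Y-linked genes, and the injured ones 74 against 125.

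The start sites of members at both ends of the range of injured over uninjured ratios are shown because the pyrimidine run at the start is what the family is known for. The first 5 had the highest ratios in astrocyte-like cells and the last 2 are those of the 5 lowest with an entry in the table. Each line gives 10 bases before the RefSeq start and 20 from it on, 5′ to 3′ on the gene's strand (GRCm38.p6), with runs of 5 or more C or T in capitals.
Rpl41: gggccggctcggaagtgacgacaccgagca
Rps28: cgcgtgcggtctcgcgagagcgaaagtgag
Rpl39: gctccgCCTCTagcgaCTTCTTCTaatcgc
Rpl35: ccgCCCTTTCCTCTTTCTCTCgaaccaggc
Rpsa: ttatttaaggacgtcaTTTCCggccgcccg
Rpl7a: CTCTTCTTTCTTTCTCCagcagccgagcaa
Rpl18: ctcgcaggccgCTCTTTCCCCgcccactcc
These windows lie at chr10:128549149-128549178 (minus strand, Rpl41), chr17:33824543-33824572 (minus, Rps28), chrX:37085203-37085232 (minus, Rpl39), chr2:39005112-39005141 (minus, Rpl35), chr9:120127756-120127785 (plus, Rpsa), chr2:26910797-26910826 (plus, Rpl7a) and chr7:45718061-45718090 (plus, Rpl18). Runs of at least 8 C or T stood in the lines of Rpl39, Rpl35, Rpl7a and Rpl18, so they occurred both among the highest and among the lowest ratios. Over the 60 members with an entry, 33 (55.0%) had a run of at least 8 C or T between 20 bases before and 30 bases after a start, against 21.5% of all 27025 genes in the table. The letters CGGAAG, the core of ETS factor motifs, stood on either strand between 250 bases before and 50 bases after the start in 41 of 60 members (68.3%) and in 18.8% of all genes. The letters TATAAA stood before the start of 1 of 60 members (1.67%) and of 8.95% of all genes. A match or its absence in these windows says nothing on binding or use.

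The first question was how the summed share differed between classes and conditions. Of the named classes, astrocyte-like cells had the lowest summed member share in both libraries. It was 6.01% (5.98 to 6.04) after injury and 1.06% (1.06 to 1.07) without it, a ratio of 5.65 (5.60 to 5.69). Microglia-like cells had 16.6% against 11.0%, a ratio of 1.52 (1.49 to 1.54). Fibroblast-like cells had 16.7% against 8.83%, a ratio of 1.89, with 48 of the 95 uninjured cells in a cluster that held no injured cell. The injured share was thus above the uninjured share in each named class. The astrocyte-like class had the largest ratio, but only as pooled over clusters that the injured and uninjured cells filled unequally. Within its clusters 3, 4, 6 and 11 the ratios were 2.17, 1.39, 1.12 and 0.828, each below the 2.55 of OPC-like cells.

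Endothelial-like cells had shares of 13.6% in the injured and 7.83% in the uninjured library, a ratio of 1.73 (1.69 to 1.77). Ependymal-like cells, which line the central canal, had 10.2% and 5.68%, a ratio of 1.79 (1.75 to 1.83). OPC-like cells had 7.83% and 3.06%, a ratio of 2.55 (2.46 to 2.65), second after the pooled astrocyte-like class. In mural-like cells the values were 6.72% and 4.52%, the latter from 3 cells. The median depth of a cell was higher in the injured library in each of these classes (13386 against 3064 gene UMIs in microglia-like cells, for example), and its part in the ratios was not tested.

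**Figure D1:**
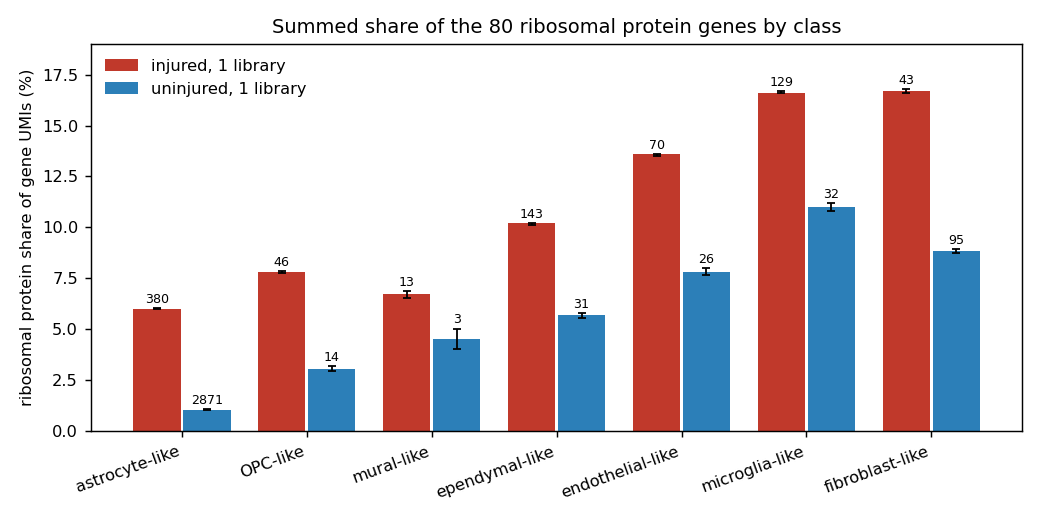
Bars give the share of all gene UMIs (%) that fell on the 80 ribosomal protein genes, by marker-named class and condition, with 1 library per condition. Numbers above the bars are cells, and error bars are exact binomial intervals of counting error. The injured bar stands above the uninjured bar in each class, and the astrocyte-like pair (6.01 and 1.06%) is the lowest.

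Within the uninjured library microglia-like cells had 10.3 times the share of astrocyte-like cells (10.1 to 10.5), and within the injured library 2.77 times (2.75 to 2.79). The OPC-like class stood nearest to astrocyte-like cells of the larger classes, at 2.88 times in the uninjured and 1.30 times in the injured library. After each cell was thinned to 1000 gene UMIs, the median astrocyte-like cell had UMIs of 31.5 members in the injured and 9.0 in the uninjured library, while the number of all genes with a UMI was 646 and 654. The same medians for members were 64.0 and 52.5 in microglia-like cells. So at equal depth the injured astrocyte-like cell showed more members and about as many genes. This left out 32 injured and 63 uninjured astrocyte-like cells below 1000 UMIs.

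Per cell, injured astrocyte-like shares ranged from 0.194 to 43.5%, with a median of 4.53% and quartiles of 1.64 and 10.5%. Uninjured shares ranged from 0 to 13.1%, with a median of 0.984% and quartiles of 0.637 and 1.35%. The ranges overlapped, yet 71.3% of injured cells lay above 2.03%, the 95th percentile of uninjured cells. Only 0.0697% of uninjured cells lay above the injured median.

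The difference between conditions followed the cluster led by Gfap. This cluster (number 3, with Dhrs1 and Timp1 also leading) held 333 of 380 injured astrocyte-like cells and 27 of 2871 uninjured ones. Its summed share was 6.35% in injured and 2.92% in uninjured cells, a ratio of 2.17 (2.10 to 2.25). In the other astrocyte-like clusters together, 47 injured cells had 0.922% and the uninjured cells 1.04%. This pooled order was reversed, but 34 of the 47 injured cells came from cluster 4, which had the lowest uninjured share, and within clusters only cluster 11 was reversed. Within the uninjured library the Gfap-led cells had 2.80 times the share of the other astrocyte-like cells, and within the injured library 6.89 times.

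The other 3 astrocyte-like clusters held few injured cells. Cluster 4, with Gm26917 and Lars2 leading and few UMIs per cell, had 0.832% in 34 injured and 0.599% in 661 uninjured cells, a ratio of 1.39 (1.28 to 1.5). Cluster 6, with Cldn10 leading, had 1.75% in 4 and 1.56% in 695 cells, a ratio of 1.12 (0.996 to 1.27). Cluster 11, with Gria1 leading, had 0.772% in 9 and 0.933% in 1488 cells, which is 0.828 times (0.738 to 0.925). Among injured astrocyte-like cells, those with a UMI of Lcn2 or Timp1, both genes of reactive astrocytes, had 6.65% and those without 5.03%.

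The share also moved with Malat1, a noncoding RNA kept in the nucleus. In astrocyte-like cells Malat1 took 2.87% of the UMIs after injury and 7.94% without it. Cells under 1% Malat1 were 177 of 380 injured and 26 of 2871 uninjured cells, and their ribosomal protein shares were 12.1 and 3.95%. Between 4 and 8% Malat1 the shares were 2.84% in 50 injured and 1.08% in 1189 uninjured cells, a ratio of 2.63 (2.58 to 2.69). Across the 5 ranges of Malat1 the ratio of summed shares lay between 2.31 and 3.33, below the pooled 5.65 and above 1 in each. The medians over cells were less even. Under 1% Malat1 the median share was 10.7% in injured and 1.81% in the 26 uninjured cells. In the higher ranges the medians ran from 1.62 to 2.19% in injured and from 0.933 to 1.06% in uninjured cells. The injured cells under 1% Malat1 had 8209 CPM of summed astrocyte markers, against 14175 to 16119 CPM in the other injured ranges.

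Depth, sex and markers of other cells moved with the share less evenly. By depth the injured shares were 6.99, 8.13 and 5.30% for cells of 500 to 2000, 2000 to 5000 and 5000 to 50000 gene UMIs, and the uninjured shares 0.954, 1.10 and 1.04%. Injured cells scored male and female had 4.62 and 4.63%, and the 181 cells scored as neither had 10.4%, with 0.664% Malat1. All 10 microglia markers had UMIs in astrocyte-like cells of both libraries, with summed levels of 63.7 CPM (injured) and 8.95 CPM (uninjured), against 26162 CPM in injured microglia-like cells. Neuron markers summed to 225 and 105 CPM, mural markers to 183 and 64.8 CPM, ependymal markers to 161 and 48.7 CPM and endothelial markers to 21.2 and 5.90 CPM, each higher after injury. OPC markers (833 and 1035 CPM) and T cell markers (5.08 and 7.81 CPM) were lower. Oligodendrocyte (303 and 279 CPM), Schwann (596 and 524 CPM), fibroblast (142 and 111 CPM) and neutrophil markers (1.38 and 1.14 CPM) were slightly higher. Injured cells under 1% Malat1 had 446 CPM of neuron markers, the most of any range. The mitochondrially encoded share of astrocyte-like cells was 7.0% after injury and 5.93% without it. The part of each in the ratio was not tested.

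**Figure D2:**
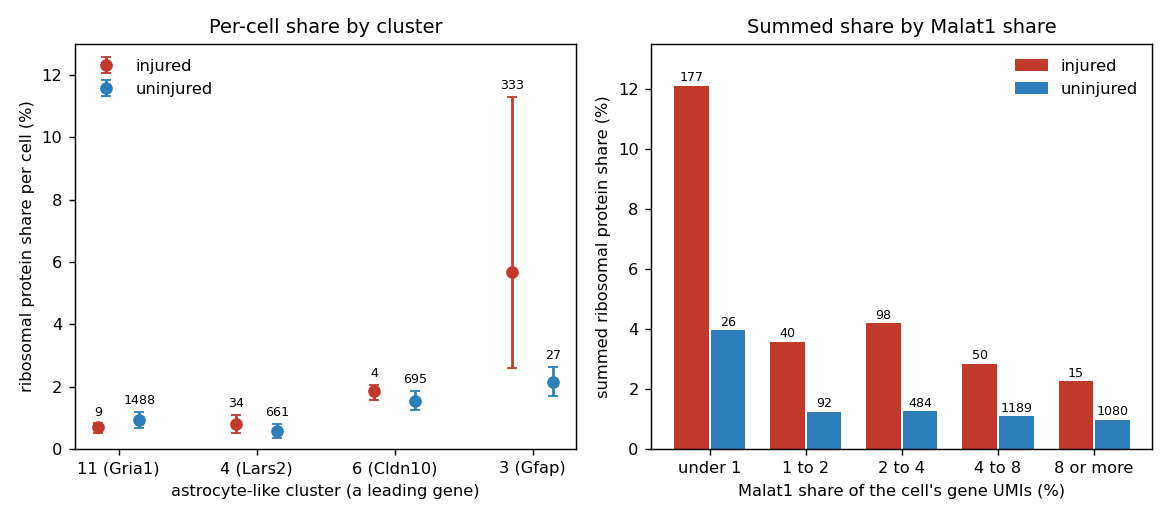
Left, the share of gene UMIs per cell (%) on ribosomal protein genes in the 4 astrocyte-like clusters, as the median (point) and quartiles (bars) over cells. Right, the summed share (%) of astrocyte-like cells grouped by the share of their UMIs from Malat1, with numbers of cells above points and bars. The Gfap-led cluster stands apart on the left, and on the right the injured bar is above the uninjured bar in each range, with 12.1% for injured cells under 1% Malat1.

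The second question was whether all members took part. In astrocyte-like cells 77 of the 77 members that passed 50 CPM were at least 1.5-fold higher in the injured library, and 0 were at least 1.5-fold lower. Over all 4246 genes tested, 29.6% were called higher and 25.8% lower. The members' log2 ratios ran from 1.58 to 3.65 with a median of 2.35, while the median over all genes tested was -0.04 and their 95th percentile 2.03. Counted in the Gfap-led cluster alone, 67 of the 77 were at least 1.5-fold higher (25.5% of all genes) and 0 lower, with a median of 1.06. In the other astrocyte-like clusters pooled 6 were higher (18.5% of all genes) and 18 lower (27.0% of all genes) of 76 that passed, so the share lower was near that of all genes. Taken singly, the members had a median log2 ratio of 0.30 in cluster 4, 0.07 in cluster 6 and -0.48 in cluster 11. These came from 34, 4 and 9 injured cells and have no all-gene value beside them. The large and small subunits had medians of 2.33 and 2.41.

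The order of levels differed in part between the conditions. Members with high levels in uninjured astrocyte-like cells were Rpl21 (270 CPM), Rpl13 (242 CPM), the stalk protein Rplp1 (224 CPM) and Rpl19 (218 CPM, as for Rpl18). In injured cells Rpl41, the smallest protein of the ribosome, was highest at 2485 CPM (2419 to 2552), followed by Rplp1 at 2141 CPM. Rpl21 and Rpl13 had 1012 and 1371 CPM there. The kit tags 1 end of each molecule, so these levels count molecules and are not divided by length. The lowest members above 0 in uninjured cells were Rpl3l (4.86 CPM), Rpl35 (30.5 CPM), Rps28 (44.4 CPM), Rps27l (53.3 CPM) and Rpl36a (56.8 CPM).

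Of the 5 highest ratios 4 belonged to small proteins, and the other to Rpsa, a long member. Rpl41 had 5384 UMIs (2485 CPM) in injured and 2071 UMIs (197 CPM) in uninjured astrocyte-like cells, a log2 ratio of 3.65 and a ratio of 12.6 (12 to 13.3). Rps28, near the exit of the messenger RNA, had 523 against 44.4 CPM, a log2 ratio of 3.53. Rpl39, in the wall of the exit tunnel for the new peptide, had 1159 against 100 CPM, a log2 ratio of 3.52. Rpl35, at the mouth of the same tunnel, had 359 against 30.5 CPM, also a log2 ratio of 3.52. Rpsa, which doubles as a laminin receptor, had 1381 against 136 CPM, a log2 ratio of 3.34. These 5 differed in level among themselves, from 359 to 2485 CPM in injured cells.

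The lowest ratios were still above 1. Rpl3, whose long finger reaches towards the peptidyl transferase centre, had 482 against 161 CPM, a log2 ratio of 1.58 and a ratio of 3.00 (2.77 to 3.24). Rpl18 had 659 against 218 CPM, a log2 ratio of 1.59. Rpl7a had 438 against 132 CPM, a log2 ratio of 1.72. Rpl23a, the tunnel exit protein that docks the signal recognition particle, had 556 against 148 CPM, and Rpl21 had 1012 against 270 CPM, both with a log2 ratio of 1.90. After the log2 ratio of the summed members (2.50) was subtracted, 12 members lay at least 1.5-fold above it, with Rpl41 at 1.15, and 6 at least 1.5-fold below it, with Rpl3 at -0.92.

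**Figure D3:**
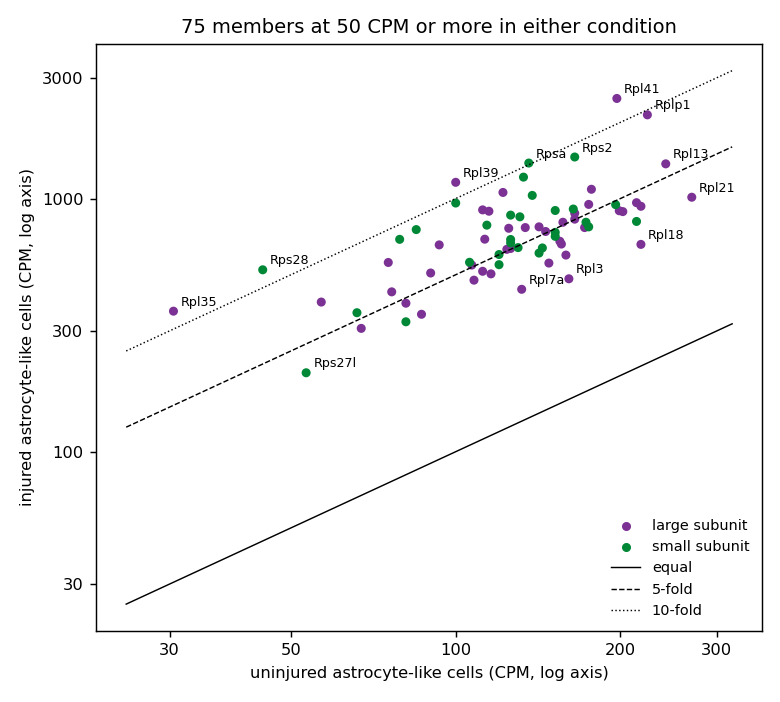
Each point is 1 of 75 ribosomal protein genes, with its CPM in uninjured astrocyte-like cells on the x axis and in injured ones on the y axis (both log axes). Lines mark equal levels, 5-fold and 10-fold. Each point lies above the line of equal levels, with Rpl41, Rps28, Rpl39, Rpl35 and Rpsa on or above the 10-fold line and Rpl3 and Rpl18 at 3.00 and 3.02-fold.

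Seen by their place in the ribosome, the groups overlapped in their ratios. The stalk, which recruits translation factors, comprised Rplp0, Rplp1, Rplp2 and Rpl12, with log2 ratios of 2.60 to 3.25 and a median of 2.84. Of these Rplp1 was highest, at 2141 against 224 CPM. The messenger RNA entry proteins Rps2, Rps3 and Rps9 had log2 ratios of 3.14, 2.40 and 2.14. The 8 tunnel exit proteins spread from 1.90 (Rpl23a) to 3.52 (Rpl35 and Rpl39) with a median of 2.44. So members that lie side by side on the tunnel stood at opposite ends of the list.

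The groups at the 5S particle and the peptidyl transferase centre lay lower, each with a median of 2.08. Rpl5 and Rpl11, which carry 5S ribosomal RNA and bind the p53 regulator Mdm2 when free, had log2 ratios of 2.00 and 2.16. Around the peptidyl transferase centre Rpl3, Rpl8 and Rpl10 had 1.58, 2.08 and 2.24. Rps27a, made as a fusion with ubiquitin, had 806 against 173 CPM, a log2 ratio of 2.22. The 4 members on chromosome X, Rpl10, Rpl36a, Rpl39 and Rps4x, had log2 ratios of 2.24, 2.76, 3.52 and 2.68, inside the range of 1.58 to 3.65 of the other chromosomes. The sexes were not balanced between the libraries, as given above.

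Pooled over astrocyte-like cells, the paralogs Rps27l and Rpl3l had lower ratios than their parents. Rps27l had 205 against 53.3 CPM, a log2 ratio of 1.93, and its parent Rps27 had 354 against 66.0 CPM, a log2 ratio of 2.41. In the Gfap-led cluster alone this order was reversed. There Rps27l had 218 against 40.8 CPM, the latter from 5 UMIs (13.3 to 95.3 CPM), and Rps27 had 375 against 212 CPM. Rpl3l, a paralog of Rpl3 best known from muscle and heart, had 1 UMI in injured and 51 UMIs in uninjured astrocyte-like cells, a ratio of 0.0950 (0.00236 to 0.554). The 51 UMIs were spread over 49 cells of clusters 4, 6 and 11, at 8.76, 2.68 and 4.93 CPM. In the 47 injured cells of those clusters Rpl3l had 0 UMIs, which allows up to 22.1 CPM at 3 counts, so no difference was detectable there at this depth. It was also at 0 in the 27 uninjured cells of the Gfap-led cluster, where the same limit is 24.5 CPM.

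Rpl10l and Rpl39l, paralogs known from the testis, had 0 UMIs in astrocyte-like cells of both libraries, which allows up to 1.38 CPM (injured) and 0.286 CPM (uninjured). Rpl10l had no UMI in any kept cell. Rpl39l had 10 UMIs in all kept cells, 9 of them in injured microglia-like cells. Rps4l had no row among the gene features. Reads that match several genes equally are not counted by Cell Ranger, so members with near-identical processed copies may be understated in both libraries.

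The ratio of a member went with its length. Over the 77 members Spearman's rho between log2 ratio and longest annotated coding length was -0.42 in astrocyte-like cells (a description over genes that share the same libraries). The 26 shortest (138 to 405 bases) had a median log2 ratio of 2.68, the middle 25 of 2.22, and the 26 longest (582 to 1257 bases) of 2.21. In the Gfap-led cluster the medians were 1.47, 1.04 and 0.84, with a rho of -0.60. Rpsa and Rps2 were long members with high ratios (3.34 and 3.14). The order was not particular to the family, since 303 other genes with coding lengths up to 405 bases had a median log2 ratio of 1.06, the 1491 up to 1257 bases 0.43, and the 2280 longer ones -0.41.

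**Figure D4:**
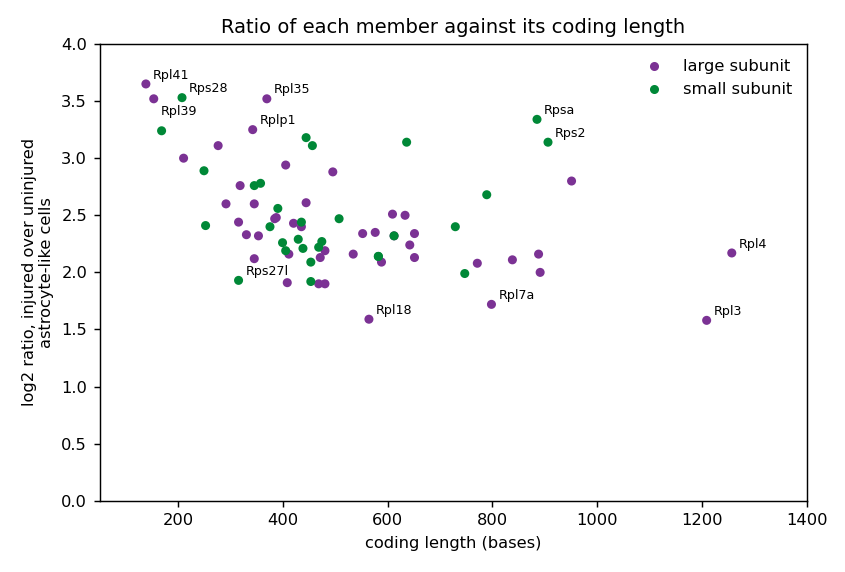
Each point is 1 of 75 ribosomal protein genes that passed 50 CPM, with its longest annotated coding length (bases) on the x axis and its log2 ratio in astrocyte-like cells on the y axis. The short genes Rpl41, Rps28 and Rpl39 are highest and the long gene Rpl3 is lowest, with Rpsa and Rps2 as long genes at 3.34 and 3.14.

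In other classes the same direction held, with smaller sizes than in the pooled astrocyte-like class. The Gfap-led cluster alone had a median log2 ratio of 1.06. In microglia-like cells 77 of 77 members were above 0 and 42 were at least 1.5-fold higher in the injured library (20.4% of all genes tested there), with a median log2 ratio of 0.61 and an all-gene median of -0.30. In ependymal-like cells 61 of 77 were called higher (14.0% of all genes), with a median of 0.80. In endothelial-like cells 58 of 77 were called higher (16.1% of all genes), with a median of 0.82. No member was at least 1.5-fold lower in these 3 classes. Of all 80 members, the counting interval lay above equality for 77 in astrocyte-like and fibroblast-like cells and for 76 in OPC-like cells. It did so for 74 in both endothelial-like and ependymal-like cells, for 71 in microglia-like and for 5 in mural-like cells, and lay below it for Rpl3l in astrocyte-like cells alone. The same count was not made over all genes, and it also depends on the UMIs of each class. These interval counts are thus not read as a trait of the members.

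Some members that led in astrocyte-like cells were also high in other classes, though not in each. Rpl41 had a log2 ratio of 1.48 in microglia-like, 0.93 in ependymal-like, 1.11 in endothelial-like, 2.10 in fibroblast-like and 2.25 in OPC-like cells. Rps28 had 2.79 in ependymal-like, 1.90 in endothelial-like and 2.30 in OPC-like cells, from 22, 37 and 14 uninjured UMIs. Rplp1 differed by class, with 3796 CPM in uninjured and 3850 CPM in injured microglia-like cells, a log2 ratio of 0.02 (interval of the ratio 0.922 to 1.12), against 3.25 in astrocyte-like cells. The difference between classes was not tested.

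Within the injured library the other classes were above astrocyte-like cells for nearly all members. Microglia-like cells were at least 1.5-fold higher for 76 of 77 (34.1% of all genes), with a median log2 difference of 1.5. Endothelial-like cells were higher for 72 (37.0% of all genes), with a median of 1.17. Ependymal-like cells were higher for 53 (34.0% of all genes), with a median of 0.72. Rps27l was the member with the largest share in astrocyte-like cells relative to the other 3 classes, at 0.342% of the summed member UMIs against 0.173 to 0.174%. It was not particular to astrocyte-like cells, since the 46 injured OPC-like cells, left out of this comparison, had 0.455%.

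The makeup of the pool varied by class within about 2-fold. Among members at 50 CPM or more in the 4 injured classes of at least 50 cells, the widest log2 range of the share of member UMIs was 1.03, for Rpl10, a late-joining protein at the peptidyl transferase centre. Rpl10 was 1.31% of member UMIs in microglia-like and 0.643% in astrocyte-like cells, and in the uninjured library 1.78 and 0.762%. Rpl38 followed with 1.86% in endothelial-like and 0.942% in microglia-like cells (0.98), then Rps27l (0.98), Rplp0 with 1.95% in ependymal-like and 1.09% in astrocyte-like cells (0.84), and Rps29 with 1.87% in microglia-like and 1.07% in ependymal-like cells (0.81). In the uninjured library, over the same 4 classes, the highest class was again microglia-like for Rpl10 and Rps29 and astrocyte-like for Rps27l. It was another class for Rpl38 (1.39% in ependymal-like cells) and Rplp0 (1.31% in microglia-like cells).

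Rpl13 stood out in OPC-like cells, outside that rule because the class had fewer than 50 injured cells. It took 4.72% of member UMIs in injured and 11.1% in uninjured OPC-like cells, against 2.10 to 3.1% in the astrocyte-like, microglia-like, ependymal-like, endothelial-like and fibroblast-like classes of both libraries. Its OPC-like level of 3690 CPM after injury stood beside 3406 CPM without it, a log2 ratio of 0.12 (interval of the ratio 0.967 to 1.22).

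By rank over the 77 members, the pool of injured astrocyte-like cells had a Spearman's rho of 0.645 with uninjured astrocyte-like cells and of 0.773 to 0.836 with the other injured classes of over 40 cells. Injured and uninjured cells of 1 class had 0.848 in microglia-like, 0.832 in endothelial-like, 0.800 in fibroblast-like, 0.799 in ependymal-like and 0.727 in OPC-like cells. The astrocyte-like pair was thus the least alike of these, but its 2 sums came largely from different clusters. The Gfap-led cluster gave 128990 of 130239 member UMIs in the injured and 3580 of 111768 in the uninjured sum. These values describe sums that share a library or a class, and the smaller classes carry more counting noise.

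**Figure D5:**
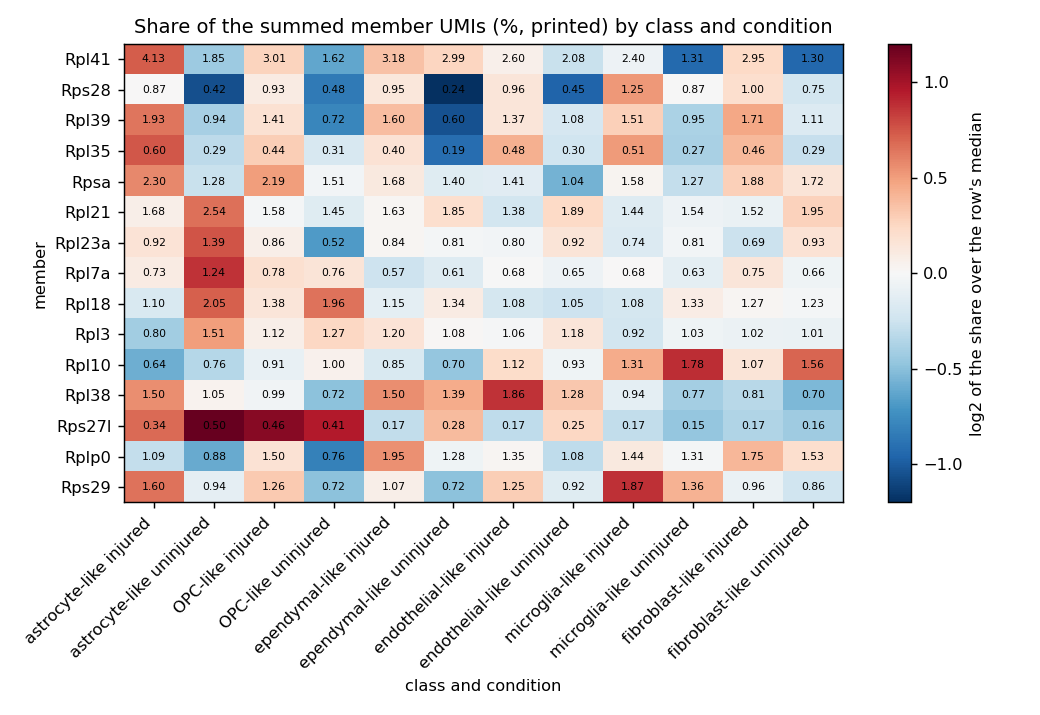
Cells of the map give each gene's share of the summed ribosomal protein UMIs (%, printed) in 6 classes and both conditions, coloured by its log2 over the row's median. Rows are the members with the 5 highest and 5 lowest ratios in astrocyte-like cells and 5 with a wide range over classes. Rpl41 reaches 4.13% in injured astrocyte-like cells, and Rps27l is highest in astrocyte-like and OPC-like cells.

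Other parts of the translation machinery moved the same way with smaller ratios in astrocyte-like cells. Of 8 ribosome parts outside the name pattern 5 passed 50 CPM, with a median log2 ratio of 2.09. All 5 were at least 1.5-fold higher, where 29.6% of all genes tested were higher. These included Fau, a ubiquitin-like fusion of Rps30 (907 against 212 CPM), Rack1 (324 against 62.9 CPM) and Rps3a1 (684 against 156 CPM). Of 21 other messenger RNAs with a TOP motif 19 passed and 19 were higher, with a median of 1.52, led by the elongation factor Eef1a1 at 1401 against 224 CPM and followed by Tpt1 at 1152 against 205 CPM. Of 41 translation factors 36 passed and 31 were higher, with a median of 1.05. These 3 lists share genes, among them Eef1a1, Fau and Rack1.

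Among the 36 translation factors past 50 CPM the highest log2 ratios were those of 3 subunits of elongation factor 1, Eef1a1 (2.64), Eef1b2 (2.26) and Eef1g (1.79). The lowest were those of the initiation factors Eif4h (0.16), Eif3a (0.35) and Eif5 (0.36). The 2 kinds overlapped, since Eef1d had 1.10 and Eif5a 1.77. Of 35 ribosome assembly factors 8 passed, and 6 of these were higher, with a median of 1.18. Of 78 mitochondrial ribosome genes 47 passed and 36 were higher, with a median of 0.88. Of 89 nuclear genes of oxidative phosphorylation 77 passed and 46 were higher, with a median of 0.70, and of 39 proteasome subunits 31 passed and 28 were higher, with a median of 1.02. The 13 mitochondrially encoded genes had a median of 0.36 with 3 higher, and 0 genes of any of these lists were at least 1.5-fold lower. Over all genes tested 29.6% were higher and 25.8% lower, and the 3 of 13 did not exceed the former share. The lists were not matched to other genes by length. The 303 other genes with coding lengths up to 405 bases had a median of 1.06, so list medians near it are not read as a trait of these lists. The median of the ribosomal protein genes, 2.35, was above that of each other list.

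The comparison of classes gave another order. In injured microglia-like over astrocyte-like cells the members had a median log2 difference of 1.5 and the other TOP messenger RNAs 1.25. Of the latter 16 of 21 were higher, where 34.1% of all genes were higher. The mitochondrial ribosome genes had -0.45, with 20 of 47 at least 1.5-fold lower, where 38.6% of all genes were lower. The oxidative phosphorylation genes had -0.88 with 60 of 77 lower, and the mitochondrially encoded genes -1.78 with 13 of 13 lower. The share of mitochondrial ribosome genes that were lower was thus near that of all genes.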

How the data were processed

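Gene expression was measured in tdTomato-sorted mouse spinal cord cells (Chromium 3′ v3.1), with 1 library per condition. The authors deposited raw UMI counts per gene and cell, not normalised, made with Cell Ranger 7.1.0 per the file headers and 8.0.1 per the submitters' processing notes on mm10. Enhancer barcode features were not used here. Cells with over 500 and under 50000 gene UMIs were kept, after the study's filter. All cells came from the deposited filtered matrices, and no doublets were removed.

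Each cell was scaled to 10000 counts before the log transform, and clusters were made with scanpy 1.11.5 and igraph 0.11.9 from 2000 variable genes that excluded the members (15 components, 15 neighbours, Leiden at 0.5). A cluster took the class with the highest mean marker level (over 0.2) if 3 of its markers were found in 10% of cells and its 10 leading genes held no larger number of another class's markers. Leading genes were taken among genes found in at least 25% of its cells. This naming rule was set after leading genes were seen. Classes may differ from the study's.

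UMIs were summed per class and condition. Ratios used a pseudocount of 1 CPM, which understates low genes, and genes at 50 CPM or more in either group. Intervals were exact (Clopper-Pearson, Poisson or conditional binomial). No p-values were computed. Calls at 1.5-fold were tested on simulated data. A 2-fold change given to 200 of 3515 genes was recovered for 100% of them, and 95.2% of intervals covered the true ratio. The simulated counts had Poisson noise alone, without spread between cells or libraries. They check the calculation and not how well the calls hold in these libraries. Positions and lengths came from GENCODE M21 (99.8% of IDs matched) and promoters from RefSeq (60 members matched).

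Named members were the 5 highest and lowest levels and ratios, the 6 widest ranges over classes, paralogs, chromosome X members and role groups. Single values of 2 members are not reported here and are not plotted. The oxidative phosphorylation and proteasome lists were added after values were seen, and Rpl13 in OPC-like cells was singled out after its values were seen. Members and lists were chosen with earlier results of these data known.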

Additional observations from a re-analysis of the deposited data

Results flagged for a closer look

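The summed share of the members had opposite directions in 2 astrocyte-like clusters. In cluster 11, led by Gm20713 and Gria1, the injured over uninjured log2 ratio was -0.27 (-0.44 to -0.11), and in cluster 3, led by Gfap, it was 1.12 (1.07 to 1.17). Cluster 11 held 9 injured cells, and the difference between the clusters was not tested.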

How the results depend on the processing

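The log2 ratio of the summed share between injured and uninjured astrocyte-like cells was 2.50, and that of injured microglia-like over astrocyte-like cells was 1.47. They were 2.29 and 1.65 with at least 1000 UMIs per cell, 2.44 and 1.51 at resolution 1.0, 2.41 and 1.29 for cells with an Aldh1l1 UMI, and 2.48 and 1.51 without the 5% of cells of highest Scrublet score. Male cells gave 2.14 and 1.85, the mean over cells 2.69 and 1.21, and thinning to 1000 UMIs 2.67 and 1.22. Leaving mt- genes out of the denominator gave 2.51 and 1.40, leaving the members out 2.57 and 1.64, and median-of-ratios scaling 2.62 and 1.41. With members among the variable genes the first was 2.37, and with no filter on cells the second was 1.45. Without a filter on low values 1 member was lower (Rpl3l), and after the summed ratio was subtracted 12 were higher and 6 lower.

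Some alternatives were chosen after seeing the data. Counting the Nefl-led cluster as astrocyte-like gave 2.31 and 1.49, astrocyte-like cells with at least 1% Malat1 gave 1.77 and 2.21, those with 4 to 8% gave 1.40 and 2.55, and the Gfap-led cluster alone gave 1.12 and 1.39. Without the Gfap-led cluster, with 47 injured cells left, they were -0.18 and 4.17, with 6 members higher and 18 lower, pooled over clusters of unequal share and unequal numbers of injured cells. Members were then at -0.36 (Rpl21), -0.95 (Rpl19), -0.58 (Rpl36a), -1.23 (Rps27l), -1.89 (Rpl35), -0.16 (Rpl39), -0.32 (Rpl23a), -0.81 (Rpl7a), -0.46 (Rpl18), -0.94 (Rpl3), -0.42 (Rpl10), -0.44 (Rplp0), -0.53 (Rps27), -0.42 (Rps4x), -0.36 (Rplp2), -0.01 (Rpl12), -1.89 (Rpl5), -0.27 (Rpl11), -0.47 (Rpl17), -1.02 (Rpl22), -0.73 (Rpl26), -0.01 (Rpl31), -0.46 (Rpl8), -0.45 (Rps2), -0.62 (Rps3), -0.44 (Rps9) and -0.12 (Rps27a). In the Gfap-led cluster alone Rpl3 was at -0.02 and Rpl3l, from 1 UMI, at 0.58. The cause was not tested.

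Of 385 values for 35 named members under the other alternatives, 238 stayed within their counting interval, 147 moved and 0 changed direction. No paired analysis was possible because only 1 gene expression library per condition was made. Leaving out a replicate was not possible for the same reason. Depth limits the values of uninjured OPC-like and mural-like cells and of paralogs with few UMIs.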
